A study of Mus musculus with 71 samples.

Results

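The histone variant genes that cells transcribe outside of S phase were described in male mouse embryonic stem cells (mESC) treated with the Mettl3 inhibitor STM2457. They were picked by gene name, as H2afz, H2afv, H2afx, H2afy, H3f3a, H3f3b, Cenpa, H1f0 and H1fx, and make up 9 of the 21527 genes counted in the series. All 9 passed the filter on low read counts, which 12659 genes passed.

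The study followed mRNA decay by SLAM-seq, in which cells take up the uridine analogue 4-thiouridine (s4U) and iodoacetamide turns each incorporated s4U into a T-to-C conversion in the sequencing reads. Cells grew in 2i/LIF medium on gelatin, received 100 µM s4U for 24 h and were then chased with an excess of uridine. DMSO, the solvent, or 20 µM STM2457, which blocks the methyltransferase that writes N6-methyladenosine (m6A) on mRNA, was added 6 h before the chase and was kept throughout. Libraries of transcript 3′ ends were made at 0, 1, 1.5, 2.3, 3.5, 5.3, 8 and 12 h of chase. Each of the 16 labelled groups held 4 replicates, except STM2457 at 3.5 h with 3, and each treatment had 4 libraries of unlabelled cells, which gave 71 libraries in 18 groups. How long the unlabelled cells had been treated was not given in the sources used here. Hours of chase, of treatment and in culture advanced together in this design and cannot be told apart. The sources call the replicates independent, but the labels do not say which share a culture plate or day, so the p-values measure the spread between these libraries.

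A library held 4539726 to 7368244 counted reads. Levels are given as CPM, read counts relative to the size of the library, scaled by edgeR's TMM factors, with the standard deviation (SD) over replicates. They are relative to the other genes of a library, so a shift shared by most genes would not be seen. Higher, lower, rise and fall are meant in this sense. For its RNA-seq the study normalized to genes without m6A sites, a choice it checked against spike-ins, which was not done here. Among 105 pairs of replicates, 0 had identical counts, and the closest pair still differed by 2.80 times the variance of counting error per gene. Limits given for a count of 0 are those that 3 counts would give, and they cover counting error only.

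Most histone genes are switched on in S phase and produce mRNAs that end in a stem-loop instead of a poly(A) tail. Production of replication-independent variants is instead not confined to S phase, and they come mostly from spliced and polyadenylated mRNAs. Dedicated chaperones place them: H2A.Z at promoters, H3.3 at active genes and repeats, and the centromeric variant CENP-A at kinetochore sites. H2A.X is the exception that bridges both classes, since its mRNA can end in either way.

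Of 10 pluripotency markers, 9 were counted and all 9 reached a mean of at least 1 CPM (over counted reads), from Klf4 at 2.796 to Pou5f1 at 819, with a summed level of 1399 to 2663 CPM per library. The most abundant genes of the other lists averaged 43.8 CPM (Krt8, trophoblast), 20.4 (T, mesoderm), 16.7 (Nes, neuroectoderm), 10.8 (Thy1, fibroblast or feeder), 4.498 (Gata4, primitive endoderm) and 0.303 (Zscan4c, 2-cell-like). Postn and Zscan4f had 0 reads in every library, which allows up to 0.661 CPM in the shallowest. The summed pluripotency level was 2192 ± 74.1 CPM in DMSO at 0 h and 1445 ± 38.1 at 12 h, against 2507 ± 113 and 2239 ± 143 with STM2457 (SD, n = 4 each).

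Per length of the counted window, the variants spanned a wide range in cells without label or inhibitor. In unlabelled DMSO libraries H2afz, which encodes H2A.Z, averaged 5871 ± 587 CPM per kb (SD, n = 4). The H3.3 genes H3f3a and H3f3b followed with 1854 ± 95.1 and 1363 ± 83.6 CPM per kb. Then came H2afv, the second H2A.Z gene, with 566 ± 27.9, and H2afy, which encodes macroH2A1, with 452 ± 38.99 CPM per kb. H2afx (286 ± 23.1), H1f0 (261 ± 14.4), Cenpa (247 ± 22.2) and H1fx (199.97 ± 9.68) closed the order. This order depends on the division by window length: in CPM, H3f3b (1022) stood above H3f3a (469), and Cenpa (125) above H2afy (114). The libraries of H2afx and H1f0 overlapped, as did those of H1f0 and Cenpa, while all other neighbours in the order per kb were separate. The window was 252 bases for H1f0, H1fx and H2afy and 750 bases for H3f3b.

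The levels of H3f3a, H2afz and H3f3b rest mostly on reads that map to several places. Multimapping reads made up 90.1% to 97.4% of the reads of H3f3a over the 71 libraries, 87.4% to 94.3% of those of H2afz and 55.8% to 78.1% of those of H3f3b. For H1fx the share was 0% to 11.4%, highest in a 1 h STM2457 library with only 105 reads of the gene. For the other 5 genes it was at most 1.996%. Among annotated genes (GENCODE M21, GRCm38), 16 pseudogenes matched at least 84 bases of H3f3a mRNA at 95% identity or more, 1 of them, Gm2099, within the 3′ UTR over 354 bases. H2afz had 4 such pseudogenes, H3f3b had 1 pseudogene and 1 processed transcript, and no match was found for the other members. None of the matches of H2afz and H3f3b reached more than 1 base into the 3′ UTR, where reads were counted, so where their multimapping reads also map was not found. Unannotated copies were not searched. How much of the level of H2afz, H3f3a or H3f3b comes from other copies is thus uncertain. In uniquely mapping reads the order of the genes differed: the median over the 71 libraries was 124 reads for H3f3a, the lowest of the 9, and 728 for H2afz, below H3f3b (1779) and H2afv (1715).

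**Figure D1:**
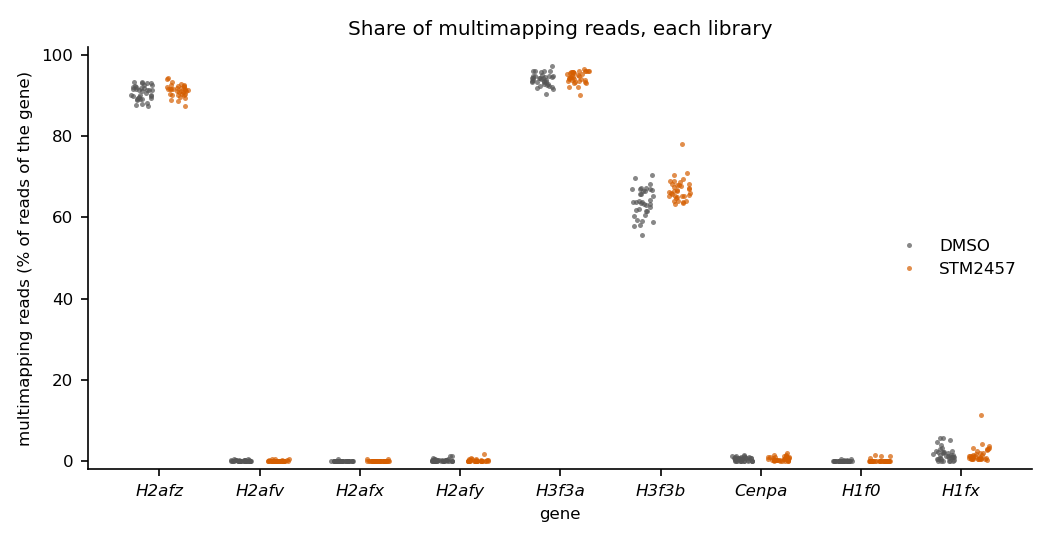
Multimapping reads as a percentage of all reads of a gene (y axis) for each of the 9 genes (x axis), 1 point per library, grey for DMSO (36 libraries) and orange for STM2457 (35 libraries). H2afz, H3f3a and H3f3b sit at or above 55.8% in every library, H1fx reaches 11.4% in 1 library, and the other 5 genes stay at or below 1.996%.

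The inhibitor was first compared over the whole chase, as the mean of the 8 time points of STM2457 minus that of DMSO, with edgeR's quasi-likelihood test at an adjusted p under 0.01. H2afx, H3f3b, H1f0 and H1fx passed, 4 of 9 members, beside 26.5% of all 12659 genes. The median log2 difference was −0.089 over the members and −0.0088 over all genes. In unlabelled cells, which that comparison does not use, H2afz and H2afx passed, 2 of 9 members beside 2.58% of all genes. From 0 to 12 h of chase in DMSO, 7 of 9 members passed beside 13% of all genes. With STM2457, 3 of 9 passed beside 4.72%. The change with STM2457 differed from that in DMSO for H2afz and H1f0, 2 of 9 members beside 1.11% of all genes. At 0 h against unlabelled cells in DMSO, H2afz passed, 1 of 9 members beside 0.513%, a comparison in which label, hours of treatment and handling are not separated. In these bulk samples, fewer cells holding a transcript and less of it per cell cannot be told apart.

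**Figure D2:**
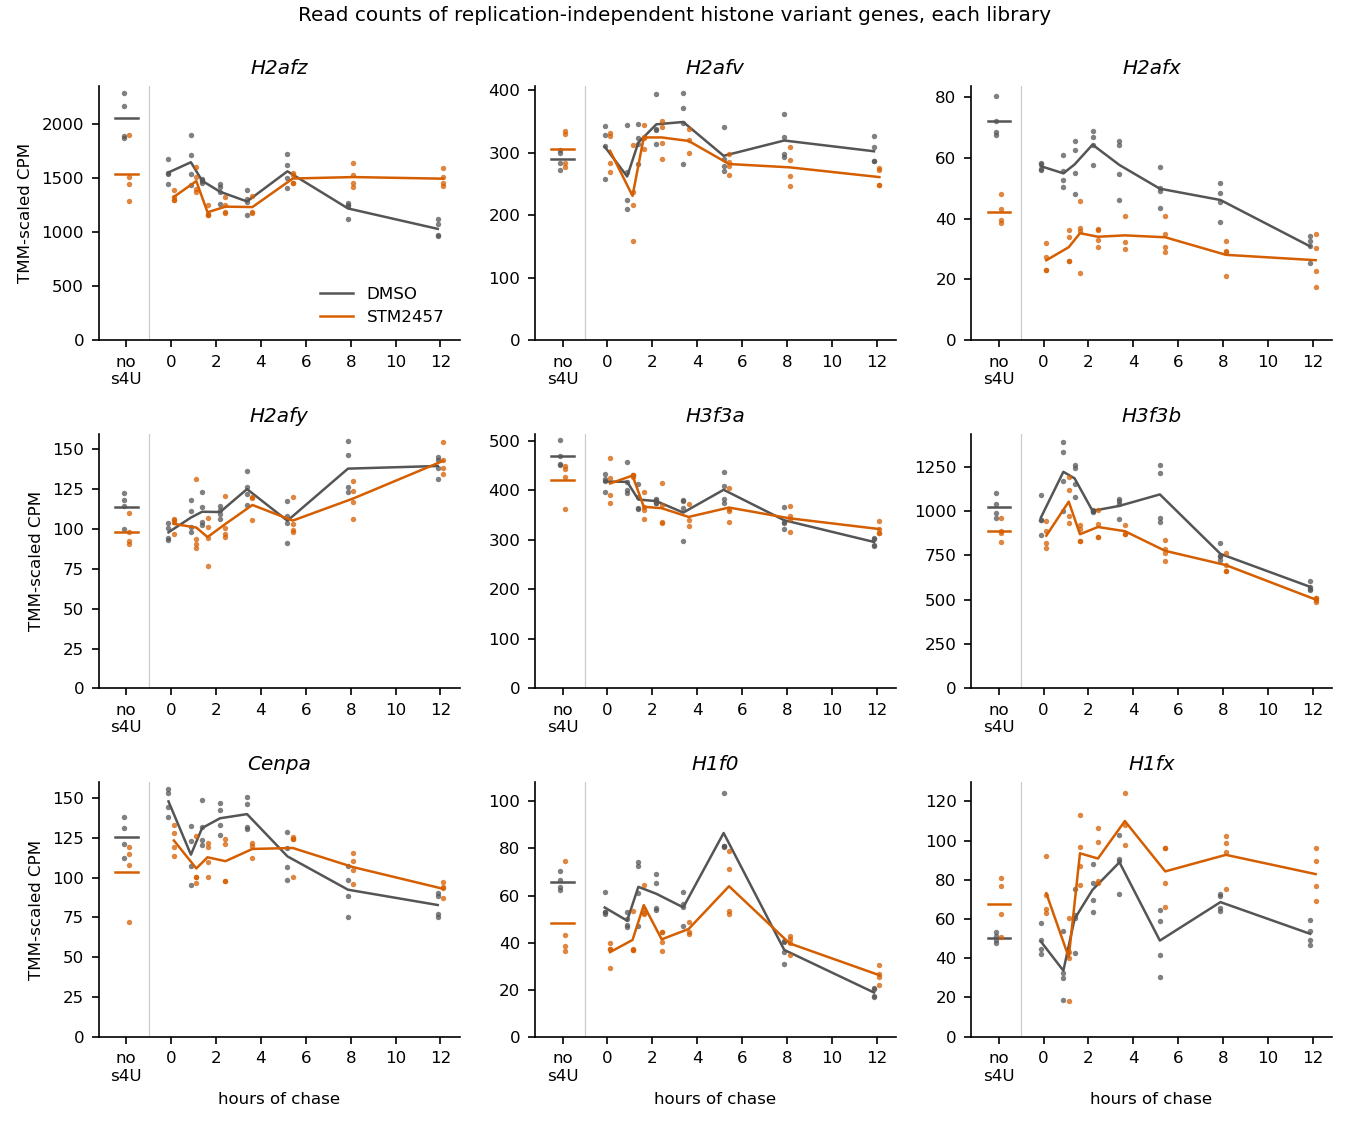
TMM-scaled CPM (y axis, from 0) against hours of chase (x axis), with unlabelled libraries at the left, for each gene. Points are libraries and lines join group means, grey for DMSO and orange for STM2457. The group means of H2afx lie lower with STM2457 at all 8 chase times, and those of H1fx lie higher. The H2afz lines cross, with means of 1553 (DMSO) and 1327 (STM2457) at 0 h and 1031 and 1495 at 12 h.

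H2A.Z, which replaces H2A in nucleosomes that flank promoters, is encoded by H2afz (GRCm38 chr3:137864487-137866922, plus strand) and H2afv (chr11:6427229-6444443, minus strand). At 0 h, H2afz stood at 1679.9, 1445, 1542 and 1544 CPM in the 4 DMSO libraries and at 1387, 1329.6, 1295 and 1296 with STM2457. At 12 h it stood at 969.8, 960.5, 1074 and 1118 in DMSO and at 1424, 1455, 1595 and 1507 with STM2457. All STM2457 libraries were thus below all DMSO libraries at 0 h and above them at 12 h. H2afz fell by 0.59 on the log2 scale in DMSO (SE 0.085, adjusted p = 1.65e-07, edgeR), whereas with STM2457 the log2 difference was 0.17 ± 0.085 (adjusted p = 0.208). The difference between these changes was 0.76 ± 0.12 (adjusted p = 1.67e-05, edgeR) and passed under all 10 alternatives (adjusted p 1.68e-08 to 0.00713). With uniquely mapping reads only, it was 1.17 and the fall in DMSO −1.01, both larger in size. The summed pluripotency level likewise differed between treatments more at 12 h than at 0 h, and its part in the H2afz result was not tested.

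With this crossing, the chase-wide difference of H2afz was −0.017 ± 0.030 (log2, adjusted p = 0.707, edgeR). Taken over 0 to 3.5 h alone, a split chosen after the data had been seen, it was −0.18 (adjusted p = 1.34e-04), and over 5.3 to 12 h 0.26 (adjusted p = 3.10e-05, range over all alternatives 3.10e-05 to 0.9998). Of the 8 time points, all STM2457 libraries of H2afz were below the DMSO libraries at 2 and above them at 2. In unlabelled cells, H2afz reached 2168, 1870.5, 1894 and 2287 CPM in DMSO and 1287, 1446, 1511 and 1895 with STM2457. The groups overlapped through STM2457 replicate 4, and the log2 difference was −0.42 ± 0.085 (adjusted p = 6.88e-04, edgeR). That call was lost when the unlabelled libraries were fitted alone (adjusted p = 0.0571) and without all libraries numbered 1 (−0.32, adjusted p = 0.03799), 2 (adjusted p = 0.0174) or 3 (adjusted p = 0.0121). It was −0.79 from uniquely mapping reads (adjusted p over the alternatives 1.08e-05 to 0.0571). The multimapping share of H2afz in unlabelled cells was 89.9 to 91.2% in DMSO and 91.7 to 94.1% with STM2457, without overlap, and was not tested.

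H2afz was also the only member past the threshold between labelled and unlabelled DMSO cells. At 0 h it was lower than in unlabelled cells by a log2 difference of −0.40 ± 0.085 (adjusted p = 0.00347, edgeR), and no library of the 0 h group reached the lowest unlabelled one. The call held under 3 of 10 alternatives (adjusted p 1.47e-04 to 0.252), while the log2 difference stayed between −0.44 and −0.35. The call was lost without replicate 1 (0.0137), 2 (0.0836), 3 (0.0471) or 4 (0.0588), with uniquely mapping reads (0.252), with no filter on low counts (0.01699) and in a fit of both groups alone (0.0982, all adjusted p). The remaining 8 members had log2 differences from −0.34 (H2afx) to 0.24 (Cenpa), none of which passed. The summed level of mesoderm markers was 68.8 ± 11.8 CPM in unlabelled DMSO cells, 38.7 ± 11.5 in unlabelled STM2457 cells and 21.8 ± 4.19 in DMSO at 0 h (SD, n = 4 each). Of 2 mesoderm genes tested at 0 h against unlabelled DMSO cells 1 fell, T (−1.74 ± 0.27, adjusted p = 1.59e-05), named here after its values had been seen, under all 10 alternatives as well (adjusted p 3.12e-07 to 0.005999). Their part in the H2afz differences was not tested.

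Over the chase the lowest, median and highest values of H2afv were 210.2, 314 and 395 CPM in 32 DMSO libraries and 158, 289.5 and 351 in 31 STM2457 libraries. The treatments overlapped at 7 of 8 time points. Its chase-wide log2 difference was −0.11 ± 0.044 and missed the threshold (adjusted p = 0.0392, edgeR), as did its change from 0 to 12 h in DMSO (−0.035 ± 0.12, adjusted p = 0.871) and with STM2457 (−0.21 ± 0.12, adjusted p = 0.297). Both treatments had their lowest mean at 1 h, 262 ± 60.2 and 231 ± 64.1 CPM (SD, n = 4).

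H2afx (GRCm38 chr9:44334694-44336077, plus strand) encodes H2A.X, the variant that is phosphorylated around DNA breaks. At 0 h it stood at 56.5, 58.4, 56.01 and 58.1 CPM in DMSO and at 31.96, 27.3, 23.04 and 23.02 with STM2457. In unlabelled cells it stood at 68.6, 80.5, 72.3 and 67.7 in DMSO and at 43.03, 39.5, 48.2 and 38.5 with STM2457. Every STM2457 library was below every DMSO library in both places, and this held at 7 of 8 time points of the chase. Over the chase, the lowest, median and highest libraries were 25.6, 54.8 and 68.8 CPM in DMSO (n = 32) and 17.6, 30.8 and 45.7 with STM2457 (n = 31). The chase-wide log2 difference was −0.73 ± 0.058 (adjusted p = 2.75e-17, edgeR), and it passed under all 12 alternatives (adjusted p 8.02e-34 to 3.03e-05). In unlabelled cells it was −0.77 ± 0.16 (adjusted p = 8.76e-04), and without the libraries numbered 2 it missed the threshold (adjusted p = 0.0358, range over the alternatives 9.76e-05 to 0.0358). These levels rest on 110 to 479 reads per library, of which at most 0.515% were multimapping.

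Along the chase H2afx fell in DMSO, from 57.3 ± 1.19 CPM at 0 h to 30.9 ± 3.77 at 12 h (SD, n = 4 each), a log2 difference of −0.89 ± 0.16 (adjusted p = 2.02e-05, edgeR). With STM2457 it was 26.3 ± 4.26 CPM at 0 h and 26.3 ± 7.72 at 12 h, with a log2 difference of −2.71e-05 ± 0.16 (adjusted p = 0.9999). At 12 h the libraries stood at 25.6, 34.3, 31.1 and 32.5 in DMSO and at 34.8, 17.6, 22.7 and 30.3 with STM2457, and the groups overlapped. The difference between these changes was 0.89 ± 0.23 and did not pass with edgeR (adjusted p = 0.0183). It passed with DESeq2 (adjusted p = 0.00785), the only one of 10 alternatives under which it did (adjusted p 0.00785 to 0.201).

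H2afx was the only member whose mRNA held the 3′ stem-loop sequence of replication-dependent histone genes. The form of the motif searched, on the mRNA strand, was loosened after the H2afx sequence had been looked at. It occurs in 46 of 67 replication-dependent histone genes (68.7%) and in 129 of 21797 coding genes (0.592%). The site lies in the 3′ UTR at chr9:44335235-44335260 of GRCm38 (plus strand, GENCODE M21), 838 bases before the annotated end, while a polyadenylation signal lies 35 bases before it, at chr9:44336031-44336060. Both are shown because they mark the alternative ends of this mRNA, with the motif in capitals.
H2afx stem-loop: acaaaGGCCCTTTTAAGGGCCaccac
H2afx polyadenylation signal: tgggctaattttATTAAAggatcgtttggt
A match is a description of the sequence. Libraries primed on poly(A) count mainly the polyadenylated end, and which end the cells used was not measured here.

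H2afy (GRCm38 chr13:56073619-56136361, minus strand) encodes macroH2A1, a variant with a large globular domain that is enriched on the inactive X chromosome and other silent chromatin. It was higher at 12 h than at 0 h in both treatments, though not in steady steps: means were 125 ± 8.78 CPM at 3.5 h and 105 ± 10.9 at 5.3 h in DMSO, and 94.9 ± 13.2 at 1.5 h and 105 ± 10.2 at 5.3 h with STM2457 (SD, n = 4 each). In DMSO it stood at 93.1, 100.4, 94.2 and 104 CPM at 0 h and at 131, 143, 145 and 138 at 12 h, and with STM2457 at 97.04, 106, 104 and 105 and at 135, 154, 138 and 143. All 12 h libraries were above all 0 h libraries of their treatment. The log2 changes were 0.51 ± 0.11 in DMSO (adjusted p = 1.93e-04, edgeR) and 0.47 ± 0.11 with STM2457 (adjusted p = 0.00164), and their difference was −0.043 ± 0.15 (adjusted p = 0.941). The call with STM2457 was lost without the libraries numbered 1 (adjusted p = 0.0246), 2 (0.03601) or 3 (0.0114). Between treatments H2afy overlapped at all 8 time points, with a chase-wide log2 difference of −0.079 ± 0.038 (adjusted p = 0.0969).

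H3.3 is encoded by H3f3a (GRCm38 chr1:180800832-180813943, minus strand) and H3f3b (chr11:116021912-116027962, minus strand), whose proteins are identical. H3f3b stood at 1091, 949, 866 and 949 CPM in DMSO at 0 h and at 946, 888, 821 and 790.2 with STM2457, and these groups overlapped. At 12 h it stood at 574, 560.4, 604 and 553 and at 488, 507, 498 and 512, with all STM2457 libraries below all DMSO libraries. That separation was seen at 4 of 8 time points, and the mean was lower with STM2457 at all 8. Over the chase the lowest, median and highest values of H3f3b were 553, 1001 and 1388 CPM in DMSO (n = 32) and 488, 836 and 1189.6 with STM2457 (n = 31), a log2 difference of −0.25 ± 0.032 (adjusted p = 1.17e-09, edgeR). It passed under all 12 alternatives (adjusted p 1.86e-17 to 3.40e-05) and was −0.40 from uniquely mapping reads. In unlabelled cells the difference was −0.20 ± 0.089 and missed the threshold (adjusted p = 0.1703).

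H3f3b fell from 0 to 12 h in both treatments, by log2 changes of −0.75 ± 0.089 in DMSO (adjusted p = 8.66e-10, edgeR) and −0.78 ± 0.089 with STM2457 (adjusted p = 2.44e-09). The changes differed by −0.029 ± 0.13 (adjusted p = 0.957), and by −0.28 from uniquely mapping reads (adjusted p = 0.268, range over the alternatives 0.268 to 0.9999). Of the reads of H3f3b, the multimapping share was 60.7, 59.5, 57.97 and 55.8% in DMSO at 12 h and 66.5, 69.4, 66.6 and 67.9% with STM2457, groups that did not overlap. At 0 h it was 66.9, 63.3, 63.8 and 64.4% and 69.1, 64.02, 63.9 and 67.6%, which overlapped. The share was also without overlap at 2.3 h (62.2 to 63.8% in DMSO, 65.2 to 68.9% with STM2457). The same held at 3.5 h (58.8 to 63.5% and 65.2 to 67.7%), while the groups overlapped at 1, 1.5, 5.3 and 8 h. No test was made of these shares.

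For H3f3a the treatments overlapped at 7 of 8 time points. Over the chase its lowest, median and highest values were 287, 379 and 458 CPM in DMSO and 313, 363 and 465 with STM2457, with a log2 difference of −0.014 ± 0.030 (adjusted p = 0.746, edgeR). From uniquely mapping reads it was −0.12 (adjusted p = 0.2797, range over the alternatives 0.258 to 0.9999). From 0 to 12 h it fell in DMSO from 418 ± 15.1 to 296 ± 8.65 CPM (−0.50 ± 0.083, adjusted p = 3.95e-06) and with STM2457 from 414 ± 40.4 to 322 ± 11.3 (−0.36 ± 0.083, adjusted p = 0.00171). With uniquely mapping reads, 58 to 246 per library, both calls were lost at log2 changes of −0.75 (adjusted p = 0.0157) and −0.68 (adjusted p = 0.05899). The call with STM2457 was also lost with no filter on low counts (adjusted p = 0.0175) and without the libraries numbered 1 (0.0212), 2 (0.0632) or 3 (0.0235).

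Cenpa (GRCm38 chr5:30666777-30674830, plus strand) encodes CENP-A, the H3 variant that marks centromeres and is deposited after mitosis. It stood at 153, 138, 156 and 145 CPM at 0 h in DMSO and at 128, 114, 119 and 133 with STM2457, where all STM2457 libraries were lower. At 12 h it stood at 75.1, 77.1, 90.4 and 88.2 in DMSO and at 94.3, 97.01, 87.1 and 93.3 with STM2457, and these overlapped. Cenpa fell in DMSO (−0.84 ± 0.12 on the log2 scale, adjusted p = 8.98e-08, edgeR). With STM2457 the change was −0.41 ± 0.12 (adjusted p = 0.0151), which passed with DESeq2 (adjusted p = 0.00922) and in a fit of both groups alone (0.00851). The difference between the changes, 0.43 ± 0.17, did not pass (adjusted p = 0.181). The chase-wide log2 difference was −0.089 ± 0.042 (adjusted p = 0.0858). In the split made after the data had been seen, it was −0.23 over 0 to 3.5 h (adjusted p = 4.65e-04) and 0.15 over 5.3 to 12 h (adjusted p = 0.122, range over all alternatives 4.65e-04 to 0.3196).

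The linker histones bind where DNA enters and leaves the nucleosome, and the pair of replication-independent genes moved in opposite directions with STM2457 over the chase as a whole. H1f0 (GRCm38 chr15:79028450-79030504, plus strand) encodes H1.0, which accumulates in differentiating and non-dividing cells. It stood at 52.01, 53.2, 61.5 and 52.8 CPM at 0 h in DMSO and at 39.9, 37.3, 37.2 and 29.4 with STM2457, and all STM2457 libraries were lower. At 12 h it stood at 17.1, 20.9, 16.8 and 20.3 in DMSO and at 25.6, 21.9, 30.5 and 26.6 with STM2457, and all STM2457 libraries were higher. Its highest group mean in each treatment was at 5.3 h, 86.6 ± 11.4 CPM in DMSO and 63.9 ± 13.2 with STM2457 (SD, n = 4).

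Over the chase H1f0 differed by −0.22 ± 0.055 on the log2 scale (adjusted p = 0.00115, edgeR), with lowest, median and highest values of 16.8, 53.1 and 104 CPM in DMSO and 21.9, 41.3 and 78.9 with STM2457. The difference was −0.38 over 0 to 3.5 h (adjusted p = 1.80e-05) and 0.048 over 5.3 to 12 h (adjusted p = 0.773), and without the libraries numbered 3 or 4 the call was lost (adjusted p = 0.0113 and 0.0197). H1f0 had the largest fall of the members from 0 to 12 h in DMSO, −1.55 ± 0.16 (adjusted p = 1.54e-11), while with STM2457 the change was −0.46 ± 0.16 (adjusted p = 0.0526). These changes differed by 1.09 ± 0.23 (adjusted p = 0.00141), a call lost without the libraries numbered 3 (0.91, adjusted p = 0.1003) or 4 (adjusted p = 0.0204). In unlabelled cells the values were 63.6, 66.4, 62.3 and 70.5 CPM in DMSO and 74.6, 43.3, 36.6 and 38.4 with STM2457. STM2457 replicate 1 was the highest of all 8 and the other 3 were the lowest. The log2 difference was −0.45 ± 0.15 (adjusted p = 0.0629), and −0.75 without the libraries numbered 1 (adjusted p = 0.00362, range over the alternatives 0.00362 to 0.369).

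H1fx (GRCm38 chr6:87980421-87981637, minus strand) encodes H1.10, a linker histone also known as H1X. It stood at 44.6, 42.2, 57.9 and 49.5 CPM at 0 h in DMSO and at 72.03, 65.1, 92.2 and 63.3 with STM2457, and at 59.4, 53.99, 47.01 and 49.4 and 96.2, 69.1, 89.5 and 77.04 at 12 h. All STM2457 libraries were above all DMSO libraries at both times and at 5 of 8 time points in all, and the mean was higher with STM2457 at all 8. Over the chase the lowest, median and highest values were 18.8, 60.04 and 103 CPM in DMSO and 18.001, 86.96 and 124 with STM2457. The log2 difference was 0.49 ± 0.074 (adjusted p = 9.68e-08, edgeR), and it passed under all 12 alternatives (adjusted p 3.34e-10 to 3.89e-04). In unlabelled cells it was 0.43 ± 0.21 and missed the threshold (adjusted p = 0.233), with 47.9, 53.5, 49.1 and 51.1 CPM in DMSO and 76.6, 81.2, 62.6 and 50.9 with STM2457. Along the chase the log2 differences of H1fx were 0.11 ± 0.21 in DMSO (adjusted p = 0.754) and 0.18 ± 0.21 with STM2457 (adjusted p = 0.659). Its replicates spread widely at 1 h, where DMSO libraries held 53.9, 18.8, 29.7 and 32.3 CPM and STM2457 libraries 40.3, 43.1, 60.6 and 18.001.

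The s4U label was compared as the T-to-C conversion rate, conversions over covered T positions, without subtraction of the rate in unlabelled cells. Over all genes together the rate was 1.37% ± 0.0668 in DMSO and 1.28% ± 0.0728 with STM2457 at 0 h (SD, n = 4), against 0.0814% ± 0.00438 and 0.0829% ± 0.00812 in unlabelled cells. At 12 h it was 0.279% ± 0.0104 and 0.223% ± 0.00599. At 0 h, 0 of 9 members differed between treatments with edgeR on conversions, as for 0% of 11420 genes, while at an unadjusted p under 0.05 there were 208 genes and 0 members. The median log2 difference of all genes was −0.11, and −0.012 when rates were taken relative to each library's overall rate. Members ranged from −0.22 (H2afx) to −0.053 (H2afz).

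At 12 h 1 member, H3f3b, passed, beside 4.01% of the genes. Its rate was 0.172, 0.2002, 0.22004 and 0.176% in DMSO and 0.146, 0.0888, 0.151 and 0.126% with STM2457, and the groups did not overlap. The log2 difference was −0.59 ± 0.14 (adjusted p = 0.00221, edgeR, range over the alternatives 9.17e-04 to 0.396). In unlabelled cells H3f3b had a mean rate of 0.0934% in DMSO and 0.09401% with STM2457. Relative to each library's overall rate the difference was −0.27 (adjusted p = 0.24002) and no longer passed. The call was also lost without the libraries numbered 2 (−0.43, adjusted p = 0.107), 3 (0.0138) or 4 (0.0104) and in a fit of both groups alone (0.396). Of the genes called at 12 h, 57 were higher and 401 lower with STM2457, and relative to the overall rate 138 were higher and 129 lower.

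H2afz had rates of 0.155, 0.106, 0.1399 and 0.148% in DMSO and 0.199, 0.147, 0.158 and 0.187% with STM2457 at 12 h. The groups overlapped, and the log2 difference of 0.33 ± 0.093 missed the threshold (adjusted p = 0.0113, edgeR). Relative to the overall rate it was 0.65 and passed (adjusted p = 5.54e-12, range over the alternatives 5.54e-12 to 0.4099). It also passed with a higher limit on mean coverage (adjusted p = 0.00942) and with a replicate block, and thus under 3 of 8 alternatives. The mean rate of H2afz in unlabelled cells was 0.0689% in DMSO and 0.0519% with STM2457. After its subtraction, 5.55% and 10.04% of the 0 h label was left, a difference that was not tested. The rates of Cenpa at 12 h were 0.0231, 0.0624, 0.0642 and 0.0594% in DMSO and 0.0748, 0.123, 0.105 and 0.121% with STM2457, from 2 to 19 conversions per library, and the groups did not overlap. The DMSO mean of 0.0523% was below the mean of 0.0625% in unlabelled DMSO cells, that is, at background, while the unlabelled mean with STM2457 was 0.0549%. Those of H2afx rested on 0 to 12 conversions and overlapped, and their DMSO mean of 0.0697% was likewise near that of unlabelled DMSO cells (0.0656%). Neither gene passed (Cenpa 0.95 ± 0.39, adjusted p = 0.112, and H2afx 1.59 ± 0.64, adjusted p = 0.108), and the differences were 0.90 to 1.28 and 0.83 to 2.13 over the alternatives. H1f0 had 0 conversions in 3 of 4 DMSO libraries at 12 h, which allows rates of up to 0.132% to 0.196%, and 6 conversions (0.251%) in the fourth. The STM2457 libraries held 0 to 2 conversions of H1f0. Its log2 difference was −1.15 ± 1.07 and did not pass (adjusted p = 0.5705). Without the libraries numbered 4 it was 3.83, but the DMSO libraries left were all at 0 conversions, so 3.83 gives no size of a difference.

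Half-lives were fitted to the loss of label, after subtraction of the unlabelled rate, as an exponential fixed at 1 at 0 h. They describe the loss of labelled mRNA by decay and by dilution through growth together. Fitted to pooled replicates, the longest were those of H2afv (7.74 h in DMSO, 8.77 h with STM2457) and H3f3a (7.76 and 8.08 h). With the growth rate of the cells subtracted from the decay rate, they were 18.5 and 25.8 h for H2afv and 18.6 and 20.6 h for H3f3a. These values lie above the 18 h limit set on the half-lives compared. The subtraction gave 7.79 and 7.57 h for H2afz, 7.90 and 8.45 h for H2afy and 6.47 and 7.43 h for H1fx. In DMSO, without it, 95.5% of 7394 transcripts were shorter than H2afv and 95.6% shorter than H3f3a. The medians of all were 3.19 h in DMSO and 3.45 h with STM2457. H2afy (4.96 and 5.17 h), H2afz (4.91 and 4.82 h) and H1fx (4.35 and 4.77 h) were intermediate. H3f3b (3.95 and 3.597 h) and Cenpa (3.69 and 4.03 h) came next, and H2afx (2.79 and 4.07 h) and H1f0 (2.62 and 3.34 h) were the shortest in DMSO. With a fit that is linear on the log scale, those of H1f0 were 1.98 and 1.08 h, in the opposite order. The H3.3 genes, which encode the same protein, stood apart: in the 4 DMSO replicate series, H3f3a had 10.6, 6.51, 6.35 and 9.11 h and H3f3b 3.43, 4.41, 4.45 and 3.66 h, with no overlap. No test was made between genes. Conversions were counted on all reads, and with the multimapping shares given above, label of other copies in the half-lives of H3f3a, H3f3b and H2afz cannot be told apart from their own.

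**Figure D3:**
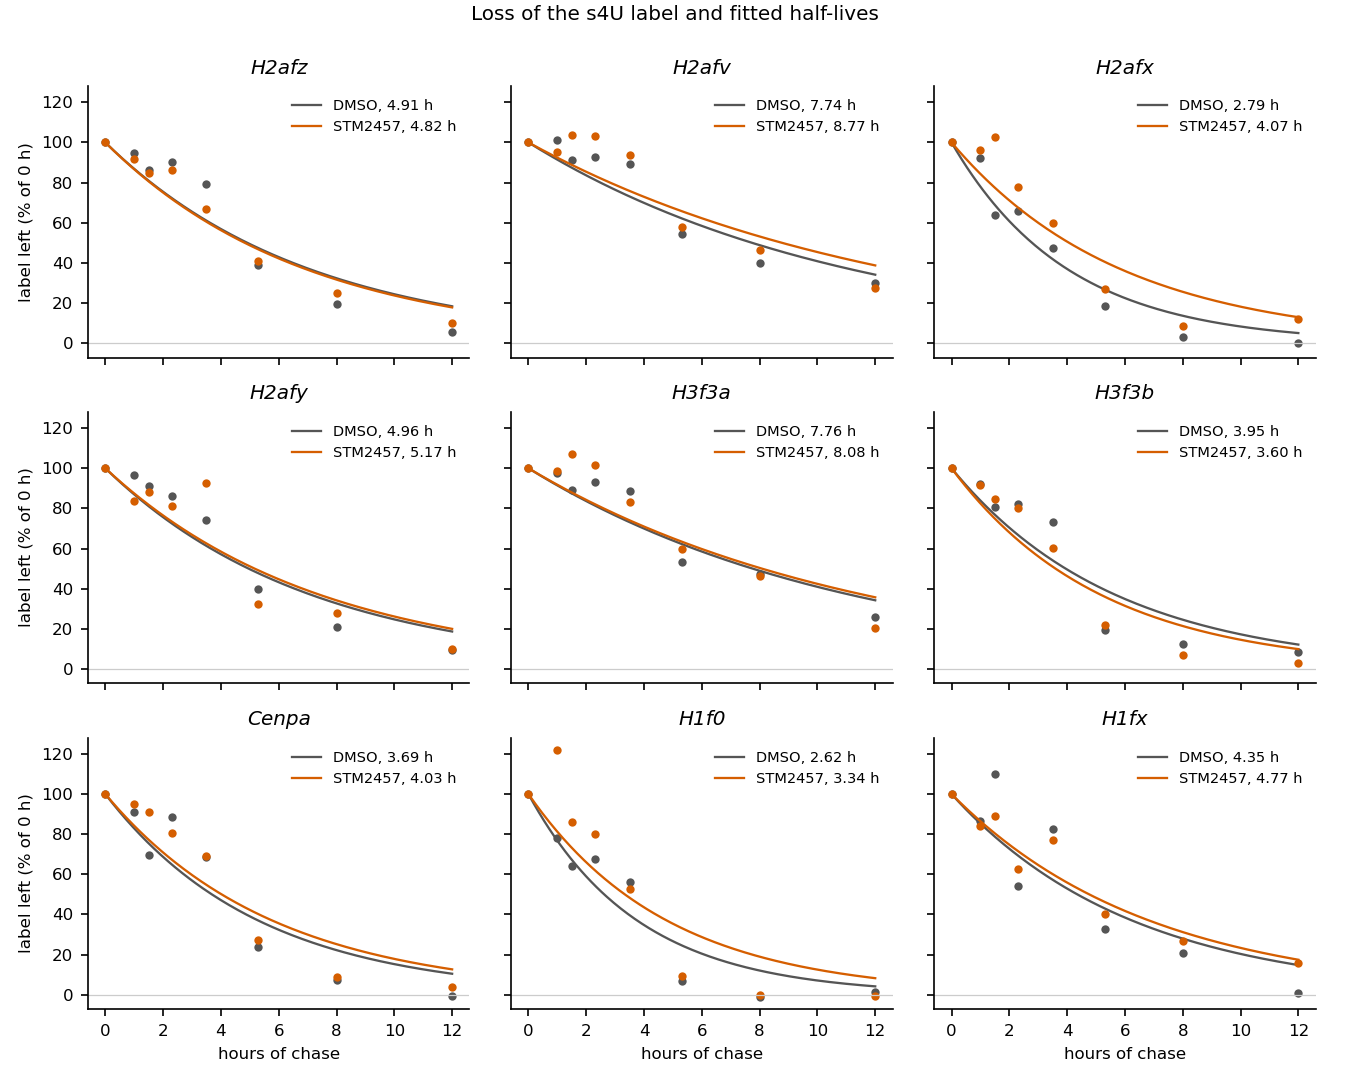
Label left, as percent of the 0 h conversion rate after background subtraction (y axis), against hours of chase (x axis) for each gene. Points are means over replicates and lines the fitted exponentials, with half-lives in the legends, grey for DMSO and orange for STM2457. Points up to 3.5 h lie mostly above the curves and points from 5.3 h mostly below, as for H3f3b in DMSO with 73.04% at 3.5 h and 19.3% at 5.3 h.

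One exponential described the time course only in part. Between 3.5 and 5.3 h the overall conversion rate went from 1.01% ± 0.0345 to 0.534% ± 0.0324 in DMSO and from 0.927% ± 0.01799 (n = 3) to 0.526% ± 0.0189 with STM2457, and the members followed. H2afz kept 79.1% of its label at 3.5 h and 38.9% at 5.3 h in DMSO, and H3f3a 88.7% and 53.4%. H1f0 kept 56.1% and 6.76%. With a fit that is linear on the log scale, half-lives in DMSO were 1.61 h for H2afx and 3.30 h for H2afz.

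The effect of STM2457 on half-life was tested on 4 series in each arm, where a series joins the labelled libraries that carry the same replicate number (series 4 of STM2457 lacks 3.5 h). With limma at an adjusted p under 0.05, 0 of 9 members passed, as did 0% of 5761 transcripts, and at an unadjusted p under 0.05 there were 405 transcripts and 0 members. The median log2 difference was 0.11 over the members and 0.046 over all transcripts. H2afx had series of 2.43, 2.32, 3.19 and 3.29 h in DMSO and 7.61, 5.42, 1.97 and 5.11 h with STM2457, where series 3 was below all DMSO series and the other 3 above them. The log2 difference was 0.70 ± 0.40 (limma adjusted p = 0.765, exact permutation p of the decay rate = 0.229, two-sided), and 0.39 to 1.17 over the 10 alternatives that tested it. With 4 against 4 series the smallest two-sided exact p is 0.0286.

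H3f3b had 3.43, 4.41, 4.45 and 3.66 h in DMSO and 3.85, 3.52, 3.48 and 3.28 h with STM2457, which overlapped (log2 difference −0.17 ± 0.21, exact permutation p = 0.229). H1f0 had 2.84, 2.72, 1.396 and 3.94 h and 3.29, 3.401, 3.11 and 3.48 h, which overlapped (log2 difference 0.38 ± 0.32, 0.12 to 0.56 over the 8 alternatives that tested it, exact permutation p = 0.257). The log-linear half-lives of H1f0 given above had the opposite order. For the other 6 genes the exact p was 0.800 or more. H1fx had series of 2.86 to 8.47 h in DMSO and 2.66 to 11.1 h with STM2457, on 0 to 107 conversions per labelled library. H2afz had 4.297 to 5.47 h and 4.27 to 5.52 h, on 148 to 3654.

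STM2457 acts on m6A, which is written in a short sequence context, so the members' mRNAs (GENCODE M21) were searched on the mRNA strand for GGAC followed by any base other than G. The density was 5.61 per kb in H2afz, 4.87 in H1f0 and 4.09 in Cenpa, above the median of 3.5 per kb over 21775 genes. It was below the median in H2afv (3.06), H2afx (2.17), H3f3b (1.99), H3f3a (1.76), H2afy (0.978) and H1fx (0.822). Within the last 250 bases of the 3′ UTR, the stretch next to its annotated end, 42.04% of 16419 genes held a match. Of the members these were H2afz, H2afx, H1f0 and Cenpa, whose sites are shown because they lie nearest to the annotated 3′ ends, with the matched bases in capitals. They lie in 3′ UTRs of GRCm38 at chr3:137866838-137866862 (H2afz), chr9:44335820-44335844 and chr9:44335946-44335970 (H2afx), chr15:79030311-79030335 (H1f0) and chr5:30674582-30674606 (Cenpa), all on the plus strand.
H2afz site: ttaataatcgGGACTtaccttagat
H2afx site A: accggcctgtGGACAagagttctat
H2afx site B: atccctgtctGGACTgagcctctgg
H1f0 site: tctaagactaGGACTtagtctcact
Cenpa site: tgccaagcatGGACTataatgctga
A match shows the letters and not that the base is methylated. The positions of the sites were not compared with those of the counted windows. H1fx, the member that was higher with STM2457 over the chase, held 1 match in its mRNA and 0 in its 3′ UTR. Of the members that were lower, H1f0 held 10 and 8, H2afx 3 and 3 and H3f3b 5 and 1. The part of such matches in these differences was not tested.

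A polyadenylation signal, AATAAA or ATTAAA, was present in the last 40 bases of the annotated 3′ UTR of 73.1% of 20387 genes. Among the members all but H2afy and H3f3b held at least 1. H2afx, H1f0 and H1fx have 1 exon, while the others are spliced from 4 to 9 exons, and the 9 genes lie on 8 chromosomes, with H2afv and H3f3b both on chromosome 11.

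Over the 18 group means, the gene whose log2 CPM correlated best with each member was sought among 7952 genes with a mean of at least 10 CPM. These were Cyb5b for H2afz (Pearson r = 0.917), Get4 for H2afv (0.955), Dcaf13 for H2afx (0.911), Prkar2a for H2afy (0.8902), Sub1 for H3f3a (0.9501), Siva1 for H3f3b (0.933), Prr11 for Cenpa (0.904), G2e3 for H1f0 (0.897) and Capns1 for H1fx (0.961). The values share libraries, depth and scaling and are a description. Among pairs of members the highest was 0.763, between H1f0 and H3f3b.

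The genes that serve or resemble the variants were counted in the chase-wide comparison of STM2457 and DMSO with edgeR. Of 32 chaperones and deposition factors, 2 rose and 8 fell (median log2 difference −0.024), beside 26.5% of all genes past the threshold in either direction. The rise was seen for Daxx, which places H3.3 at heterochromatin (0.56 ± 0.067, adjusted p = 1.94e-10), and Chaf1a, a subunit of the replication-coupled assembly factor CAF-1 (0.27 ± 0.044, adjusted p = 1.14e-06). Among those that fell, Rbbp7 (−0.23 ± 0.028, adjusted p = 2.54e-10) and the histone chaperone Nasp (−0.20 ± 0.026, adjusted p = 2.71e-09) had the smallest p. Chaf1a no longer passed over 5.3 to 12 h alone (adjusted p = 0.0367). Of 14 other variant genes 11 were in the files and 2 were tested, of which H2afj rose (0.40 ± 0.044, adjusted p = 8.97e-12). H2afy3, H3f3c and Hist3h2a were not analysed here.

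Replication-dependent histone mRNAs, counted only as far as poly(A) priming captures them, numbered 46 tested of 63, and 5 rose while 41 did not pass (median 0.092), beside 26.5% of all genes past the threshold in either direction. In unlabelled cells 0 of the 46 passed (median −0.15), beside 2.58%. Those that rose over the chase were Hist2h2ac (0.49 ± 0.088, adjusted p = 4.38e-06), Hist1h2ae (0.35 ± 0.077, adjusted p = 1.25e-04), Hist1h2ap (1.18 ± 0.27, adjusted p = 3.63e-04) and Hist1h2ao (0.59 ± 0.15, adjusted p = 7.56e-04), and Hist1h1e (0.23 ± 0.066, adjusted p = 0.00307), the last of which was named after its values had been seen. Over 5.3 to 12 h alone none of the 5 passed, and Hist2h2ac (−0.020) and Hist1h2ao (−0.057) had the opposite sign. Hist1h1e also lost the call without the libraries numbered 2 (adjusted p = 0.0122) or 3 (0.0309). Hist1h2ao lost it without the libraries numbered 3 (adjusted p = 0.0172) or 4 (0.0140). Levels of Hist1h2ap were low over the chase, 1.36 ± 1.56 CPM in DMSO and 2.93 ± 2.37 with STM2457 (SD), and its lowest library held 0 reads. Those of Hist1h2ao were 3.35 ± 1.71 and 5.25 ± 3.16 CPM, and 21.4% of its reads were multimapping. Of 11 genes that process such mRNAs, 4 rose, Lsm10 of the U7 snRNP (0.96 ± 0.064, adjusted p = 8.38e-21), Cpsf2 (0.34 ± 0.043, adjusted p = 8.53e-10), Eri1 (0.24 ± 0.037, adjusted p = 2.32e-07) and Zfp473 (0.33 ± 0.088, adjusted p = 0.00194), with a median of 0.031, again beside 26.5% of all genes. Zfp473 no longer passed without the libraries numbered 1 (adjusted p = 0.0662) or 3 (0.0383), or over 0 to 3.5 h alone (0.283). From 0 to 12 h, 9 of the 46 replication-dependent genes fell in DMSO and 11 with STM2457, beside 1038 and 384 of all 12659 genes.

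Of the 9 pluripotency markers counted, 6 rose and 1 fell with STM2457 over the chase (median log2 difference 0.36), beside 26.5% of all genes in either direction, and 0 of 9 passed in unlabelled cells (median 0.24), beside 2.58%. Over the chase there were rises of Klf2 (0.64 ± 0.049, adjusted p = 8.53e-18), Esrrb (0.64 ± 0.050, adjusted p = 1.42e-17) and Zfp42 (0.69 ± 0.074, adjusted p = 3.08e-12) and a fall of Tdgf1 (−0.44 ± 0.050, adjusted p = 4.19e-11). Of the reads of Zfp42, 73.97% were multimapping. Of the other lists, 1 of 2 mesoderm genes tested fell, T (−0.44 ± 0.10, adjusted p = 2.71e-04), while Mixl1 had a log2 difference of 0.026, and so did the only neuroectoderm gene tested, Nes (−0.34 ± 0.092, adjusted p = 0.00218), both at low levels. None passed of 2 primitive endoderm, 3 trophoblast and 2 fibroblast or feeder genes, nor did the only 2-cell-like gene tested. T lost the call without the libraries numbered 2 (adjusted p = 0.0160) and over 5.3 to 12 h alone (0.146), and Nes without the libraries numbered 1 (adjusted p = 0.0182), 2 (0.0370) or 3 (0.0117), over 0 to 3.5 h alone (0.0235) and over 5.3 to 12 h alone (0.0899). Their part in the changes of the histone variant genes was not tested. Sox2, Sox1 and Pax6 were not analysed here.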

How the data were processed

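Read counts, multimapping reads, covered T positions and T-to-C conversions were taken as the raw counts per gene that the authors deposited. They were made with SLAM-DUNK on GRCm38.p6 (FastQC 0.11.8). The 3′ UTR windows came from an earlier SLAM-seq study and were filtered to match GENCODE M23. Conversion rates were deposited as a fraction, conversions over covered T positions. The 9 genes and all lists were chosen with earlier results of these data known. Levels were compared with edgeR 4.0.16 (TMM, filterByExpr, quasi-likelihood) over 71 libraries in 18 groups, and conversion rates with the log of T coverage as offset, over genes with a mean coverage above 100 in each treatment and at least 10 conversions. Half-lives of 0.67 to 18 h with a residual standard error up to 0.3 were compared with limma 3.58.1 and an exact permutation test. That this error limit was applied to the fits of pooled replicates was chosen after the numbers had been seen. Adjusted p-values were adjusted over all genes tested, and exact permutation p-values were not adjusted. Every gene of the 9 was named, and of each list, as changed over the chase, at most the 4 past the threshold with the smallest p. Marker genes were also named for their level or for 0 reads, some genes as not analysed, and Mixl1 as the other mesoderm gene tested. Hist1h1e, the fifth of its list, and T at 0 h against unlabelled cells were named besides, after their values had been seen. For each of the 9 the gene with the highest correlation was named. Alternatives were DESeq2 1.42.0, its size factors, no filter, uniquely mapping reads, smaller fits, other decay fits, a replicate block and leaving out each replicate number. Copies were sought with blastn 2.17.0 against GENCODE M21. Other steps ran in R 4.3.3 and in Python 3.11.15 with pandas 2.3.3, scipy 1.17.1 and numpy 2.4.6. Fits were tested on simulated data.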

Additional observations from a re-analysis of the deposited data

Results flagged for a closer look

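In groups of 4 libraries, 1 library stood apart where its gap to the nearest other exceeded Dixon's critical share of the group's range, which chance gives in about 1 in 20 groups. For levels this was met in 8 of 153 groups. Above the others were Cenpa in STM2457 at 1 h (replicate 3, 126 CPM, the others 96.3 to 100.3 CPM), H1f0 in DMSO at 0 h (replicate 3, 61.5 CPM, the others 52.01 to 53.2 CPM), H1f0 in STM2457 at 1 h (replicate 2, 53.4 CPM, the others 36.9 to 37.3 CPM), H1f0 in STM2457 at 1.5 h (replicate 1, 64.5 CPM, the others 52.3 to 54.4 CPM), H1f0 in DMSO at 5.3 h (replicate 2, 104 CPM, the others 80.6 to 81.1 CPM), H2afy in STM2457 at 1 h (replicate 4, 131 CPM, the others 87.9 to 93.9 CPM) and H2afz in STM2457 at 1.5 h (replicate 4, 1255 CPM, the others 1157 to 1166 CPM). Below the others was Cenpa in STM2457 at 5.3 h (replicate 1, 100.2 CPM, the others 124 to 126 CPM).

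For conversion rates it was met in 8 of 135 groups. Above the others were H1f0 in DMSO at 1.5 h (replicate 4, 1.21%, the others 0.621 to 0.692%), H1f0 in DMSO at 12 h (replicate 4, 0.251%, the others were at 0), H2afx in DMSO at 5.3 h (replicate 3, 0.494%, the others 0.229 to 0.246%) and H3f3a in STM2457 at 1.5 h (replicate 3, 1.44%, the others 1.23 to 1.25%). Below the others were Cenpa in DMSO at 12 h (replicate 1, 0.0231%, the others 0.0594 to 0.0642%), H1f0 in STM2457 at 1 h (replicate 3, 0.909%, the others 1.39 to 1.42%), H2afz in DMSO at 2.3 h (replicate 1, 1.07%, the others 1.21 to 1.22%) and H3f3b in DMSO at 2.3 h (replicate 1, 0.956%, the others 1.08 to 1.11%). The 3 libraries of H1f0 at 0 allow rates of up to 0.132% to 0.196%. For half-lives it was met in 0 of 18 groups of series.

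The change from 0 to 12 h differed between STM2457 and DMSO, by the edgeR test of the difference, for H1f0 (log2 difference 1.09, adjusted p = 0.00141) and H2afz (0.76, adjusted p = 1.67e-05). The H1f0 result was lost without the libraries numbered 3 (adjusted p = 0.1003) or 4 (0.0204). The causes were not tested.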

How the results depend on the processing

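Over 791 tests of the 9 genes under alternatives, 710 kept direction and side of the threshold, 30 lost the call, 9 gained it and 42 changed sign. Of 206 such tests of called results, 175 kept the call, 30 lost it and 1 changed sign. Among 250 tests of list genes 230 kept both, 18 lost the call and 2 changed sign. Of 180 half-lives 153 moved by less than the SD over series and 27 by more. The causes of the changes below were not tested.

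Counts of genes called moved by over 1.5 times as follows. Over the chase 1640 genes passed when 5.3 to 12 h alone was used, in place of 3357. With only the groups compared, counts were 107 in unlabelled cells (from 326), 956 from 0 to 12 h with STM2457 (from 598), 14 for 0 h against unlabelled DMSO (from 65) and 123 for conversion rates at 12 h (from 458), which became 267 relative to each library's overall rate. DESeq2 called 107 for 0 h against unlabelled DMSO. With 1 replicate number left out, lowest and highest counts were 103 and 166 in unlabelled cells, 857 and 1207 from 0 to 12 h in DMSO (from 1651), 179 and 373 with STM2457, 40 and 83 for the difference (from 140) and 14 and 35 for 0 h against unlabelled DMSO. These fits hold fewer libraries. For half-lives, 1 of 1821 transcripts passed when the residual limit was applied in each series, an alternative chosen after seeing the data.

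With 5.3 to 12 h alone, also chosen after seeing the data, the log2 difference over the chase changed sign for Cenpa (0.15), H1f0 (0.048), H2afz (0.26), H3f3a (0.0010), Hist2h2ac (−0.020) and Hist1h2ao (−0.057). The change of H2afx from 0 to 12 h with STM2457, −2.71e-05 in the reported fit, became 0.014 with DESeq2 size factors, 0.0043 with no filter, 0.0093 with uniquely mapping reads, 0.0034 with the replicate block, 0.017 with only the groups compared and 0.014 with DESeq2. The difference between the changes became 0.011 for H2afy with uniquely mapping reads and 0.0048 for H3f3b with only the groups compared. Relative to the overall rate, conversion differences at 0 h became 0.036 for H1fx, 0.0039 for H2afv, 0.046 for H2afy and 0.047 for H2afz, and at 12 h 0.13 for H2afv and 0.065 for H2afy. Half-life differences became 0.053 for H2afy, 0.25 for H2afz and −0.089 for H3f3a in a log-linear fit, and 0.069 for H2afz without 3.5 h.

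Leaving out 1 replicate number gave values of both signs. They spanned −0.041 to 5.53e-04 for H2afz and −0.049 to 0.013 for H3f3a over the chase, −0.090 to 0.0054 for H2afv from 0 to 12 h in DMSO, −0.11 to 0.17 for H2afx with STM2457, −0.052 to 0.013 for H2afy and −0.045 to 0.026 for H3f3b in the difference, and −0.16 to 0.041 for H1fx at 0 h against unlabelled DMSO. Conversion differences spanned −0.26 to 0.14 (H1fx), −0.57 to 0.0043 (H2afx), −0.10 to 0.031 (H2afy) and −0.092 to 0.0056 (H2afz) at 0 h and −1.95 to 3.83 (H1f0) at 12 h. The 3.83 comes from DMSO libraries all at 0 conversions and gives no size of a difference. Half-life differences spanned −0.017 to 0.33 (Cenpa), −0.0088 to 0.24 (H2afv), −0.11 to 0.12 (H2afy), −0.13 to 0.030 (H2afz) and −0.032 to 0.24 (H3f3a).

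In fits with a replicate block, counts were 3375 over the chase, 341 unlabelled, 1686 and 626 from 0 to 12 h in DMSO and with STM2457, 139 for the difference, 71 for 0 h against unlabelled DMSO and 455 for conversions at 12 h. Libraries of equal replicate number and time point (or unlabelled) formed 35 pairs of DMSO and STM2457. Their residuals of read counts (log CPM) had a mean correlation of 0.00967 (−0.0771 to 0.270, 1 above 0.1). Overall conversion rates were lowest in replicate 1 at 5 DMSO time points (0 to 3.5 h) and, with STM2457, at 0, 1.5, 2.3 and 8 h. Whether the numbers mark shared cultures was not tested. With the block, H2afz conversions at 12 h passed (adjusted p = 0.00529, range over the alternatives 5.54e-12 to 0.4099).

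Multimapping limits the levels of H2afz, H3f3a and H3f3b, and few conversions limit H1f0, H1fx, H2afx and Cenpa at 12 h. Label loss includes dilution by growth, and 1 exponential left points above it early and below it late. Poly(A) priming counts the polyadenylated H2afx mRNA only in the main. Protein, methylation and cell cycle phase were not measured in these libraries.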
